A study of Mus musculus with 2 samples.

Results

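Angiopoietins, angiopoietin-like proteins and Tie receptors were followed in single cells of the mouse dura mater, the outer membrane around the brain. The genes were taken by symbol from the deposited gene table and are 8 of its 33696 genes: the angiopoietins Angpt1 and Angpt2, the angiopoietin-like genes Angptl1, Angptl2 and Angptl4, the receptor genes Tek (Tie2) and Tie1, and Ptprb (VE-PTP). All 8 were detected in both libraries. Female mice gave the dura, either sham-operated (sham) or with the jugular veins tied off 14 days earlier (JVL-14), with 1 library each. Strain, age, the number of mice and the time between sham surgery and collection are not given in the sources used here. In both groups mice were perfused with saline, and collagenase D with DNase I freed the cells of dura stripped from the skullcap. Material of 2 meninges was pooled per well, and live single cells were sorted before 3' droplet capture.

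Angpt1 activates the endothelial receptor tyrosine kinase Tie2, and this signal holds vessels quiescent and their junctions closed. Angpt2 competes for the same receptor and blocks or weakly activates it according to context, while Tie1 is a co-receptor with no angiopoietin of its own, and VE-PTP removes phosphate from Tie2. Angptl4 inhibits lipoprotein lipase, and Angptl1 and Angptl2 are secreted relatives that do not bind Tie2.

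After filtering, 4670 sham and 2473 JVL-14 cells remained, with 28346028 and 15328873 unique molecular identifiers (UMIs, each standing for 1 captured transcript). A level is the UMIs of a gene in a cell group per 1000000 UMIs of that group, brackets give a 95% interval, and ratios are JVL-14 over sham. Intervals cover counting error only, and with 1 library per group no difference has a replicate check and no test was made. The 36 clusters were built without the 8 genes and named from markers. Fibroblast-like, arachnoid barrier-like, osteoblast lineage-like, blood endothelial-like, mural-like and B cell-like cells are written without "-like" from here on. The arachnoid name rests on Slc47a1, Slc4a10, Cldn11 and Abcg2, each in at least 77.8% of the cells of its main cluster (cluster 25). Dpp4 and Krt18, which are also markers of that cell type, were in at most 1.95% of them. The first 4 markers were also in 35.8% to 61.6% of the sham cells of cluster 0, the main fibroblast cluster. Cluster 25 in turn had Col1a2, a fibroblast marker, in 98.3% of its sham cells. The fibroblast and arachnoid names thus mark a difference of degree. No lymphatic endothelial cluster was found, and at least 2 of 5 lymphatic markers were detected together in 0 sham cells and 1 JVL-14 cell.

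Ligand and receptor transcripts lay mostly in separate cell groups. Of the UMIs of each of the 5 ligand genes, between 84.4% and 99.1% in either library were in 9 stromal clusters (fibroblast, arachnoid, osteoblast and 3 unnamed ones). Of Tie1, 97.8% in sham and 94.2% in JVL-14 were in 2 endothelial clusters, and of Ptprb 95.6% and 91.2%. Tek was the exception among the receptors: 70.1% of its sham UMIs were endothelial and 29.4% stromal. B cells, which should lack these genes, had no UMI of Angpt2, Angptl1, Angptl2, Tek or Tie1 in 199 sham cells (median 2722 UMIs per cell) or 190 JVL-14 cells (median 2747). A count of 0 there allows up to 1.51% and 1.58% of cells with a UMI. Angpt1, Angptl4 and Ptprb had at most 3 UMIs in the B cells of a library, in at most 1.58% of cells.

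Tek and Tie1, 2 receptor genes with most of their UMIs in the same endothelial clusters, have different start regions. The RefSeq sequences (GRCm38.p6, 300 bases that span the gene start, in the direction of transcription) are shown because these genes parted in the stromal cells described below. Capitals mark GGAAG on either strand (CTTCC on the printed one), a longer form of the GGAA core bound by ETS factors. That family includes several endothelial regulators. Other forms of the core are not marked.
Tie1, chr4:118489800-118490099, minus strand: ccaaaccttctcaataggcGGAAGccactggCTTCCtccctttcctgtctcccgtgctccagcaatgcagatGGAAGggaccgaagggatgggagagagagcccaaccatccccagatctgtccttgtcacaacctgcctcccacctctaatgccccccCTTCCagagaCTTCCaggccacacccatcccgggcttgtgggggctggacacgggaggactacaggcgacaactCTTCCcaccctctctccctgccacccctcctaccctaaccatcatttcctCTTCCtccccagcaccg
Tek, chr4:94739039-94739338, plus strand: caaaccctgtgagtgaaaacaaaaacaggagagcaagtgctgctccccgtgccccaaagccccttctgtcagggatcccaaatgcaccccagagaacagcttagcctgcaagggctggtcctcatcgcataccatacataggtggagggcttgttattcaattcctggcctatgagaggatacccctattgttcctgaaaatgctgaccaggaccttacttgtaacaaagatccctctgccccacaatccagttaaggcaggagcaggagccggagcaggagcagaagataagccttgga
The Tie1 window holds 7 matches, and 0.234% of 32851 mouse gene starts hold at least that many. The Tek window holds 0 matches of GGAAG, and 71.4% of gene starts hold at least 1. The Tek window does hold the shorter GGAA on the other strand (printed as TTCC), which was not counted. These are matches of letters in a window of 300 bases and say nothing about binding. Of the other members, the table also held the starts of Angptl1 (0 matches) and Angptl2 (2 matches).

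Angpt1, the Tie2 agonist, was a mostly stromal transcript that was higher in the JVL-14 library in fibroblasts and arachnoid cells. In the large unnamed stromal cluster 5, described below, it was not, at a ratio of 0.679. In arachnoid cells the level was 31.2 in sham (185 UMIs, 26.9 to 36.1) and 61.9 in JVL-14 (104 UMIs, 50.6 to 75.1). Their intervals do not overlap, and the ratio was 1.98 (1.54 to 2.53). In fibroblasts it was 26.3 (92 UMIs, 21.2 to 32.3) and 42.7 (89 UMIs, 34.3 to 52.5), a ratio of 1.62 (1.20 to 2.19). The 5 cells with most Angpt1 held 16.2% and 27.9% of the arachnoid UMIs and 26.1% and 30.3% of the fibroblast ones. When the 2 fibroblast clusters were weighted equally the fibroblast ratio turned to 0.559, since cluster 23 held 5 UMIs in sham and 0 in JVL-14, and within cluster 0 alone it was 1.69 (1.24 to 2.30).

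Within the arachnoid class the main cluster, cluster 25, carried most of it, at 36.9 in sham and 73.3 in JVL-14. Cluster 21, which is led by interferon-induced genes, had 8.14 in sham, below cluster 25 with no overlap of intervals (3.51 to 16.0 against 31.5 to 43.0). In osteoblast lineage cells Angpt1 stood at 35.7 and 55.7, and the interval of the ratio of 1.56 holds 1 (0.826 to 3.0). Cluster 5, an unnamed stromal cluster led by Chad, Cilp2 and Comp that scores for cartilage and fibroblast markers, had 16.6 and 11.3 (ratio 0.679, 0.323 to 1.32). Mural cells, a known source of Angpt1, were few: 21 sham cells held 2 UMIs, and 11 UMIs in JVL-14 lay in 3 of 17 cells. Blood endothelial cells held 0 in 96 and 43 cells, which allows levels of up to 9.76 and 23.6. Outside the stromal clusters, the unnamed cluster 22 (led by Cspg5, Edn3 and Thrsp) was at 48.3 in sham. That level rests on 9 UMIs in 7 of 47 cells, and its interval (22.1 to 91.7) overlaps with those of sham fibroblasts and arachnoid cells.

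Angpt2 is usually described as an endothelial product, but here its largest share was in fibroblasts, with 41.5% of the sham UMIs and 49.1% of those of JVL-14. Cluster 0, the main fibroblast cluster (led by Inmt, Fbln7 and Cygb), had 74.0 in sham (239 UMIs in 135 of 419 cells) and 86.0 in JVL-14 (168 UMIs in 81 of 232 cells). Osteoblast lineage cells were at 56.3 and 44.6, arachnoid cells at 33.3 and 47.1 and cluster 5 at 20.9 and 21.6. In sham the intervals of fibroblasts (60.5 to 78.2) and osteoblast lineage cells (38.0 to 80.4) overlap, and those of fibroblasts and arachnoid cells (28.8 to 38.3) do not. Mural cells had the highest levels among groups of at least 15 cells, 110 and 253, from 4 and 13 UMIs only. The 6 fibroblast markers also differed between the mural cells of the libraries, with 5 detected at a summed level of 3919 in sham and 6 at 12494 in JVL-14, and Col1a1 at 7 and 158 UMIs. Their part in the mural Angpt1 and Angpt2 levels was not tested.

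Blood endothelial cells held 7 Angpt2 UMIs in 3 of 96 sham cells and 6 in 4 of 43 JVL-14 cells, at levels of 22.8 (9.16 to 46.9) and 47.2 (17.3 to 103). Cluster 24, the other endothelial cluster, was at 71.3 in sham (8 UMIs in 7 of 72 cells, 30.8 to 140), which overlaps with sham fibroblasts. The 2 endothelial clusters together accounted for 2.58% and 1.74% of all Angpt2 UMIs, but they held only 168 sham and 46 JVL-14 cells. These shares are thus not a measure of the level per endothelial cell. The ratio between libraries was 1.18 in fibroblasts (0.960 to 1.44, but 0.738 with cells thinned to 1000 UMIs), 1.41 in arachnoid cells (1.08 to 1.85), 0.792 in osteoblast lineage cells (0.426 to 1.44) and 1.04 in cluster 5 (0.602 to 1.73). In cluster 25 alone it was 1.62 (1.18 to 2.20), with 30.9 in sham and 49.9 in JVL-14.

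The balance between the 2 angiopoietins differed by cell group. Angpt2 made up 72.4% of the Angpt1 and Angpt2 UMIs of sham fibroblasts (67.2% to 77.1%, exact binomial) and 65.5% in JVL-14 (59.4% to 71.3%). In cluster 25 it made up 45.5% (39.8% to 51.3%) and 40.5% (32.7% to 48.7%), and over the whole arachnoid class 51.6% and 43.2%. The fibroblast class thus leaned more to Angpt2 than these in both libraries. Cluster 32, which stayed unnamed but scored best for fibroblasts, did not share this lean. It had 23.3% Angpt2 in sham (9.93% to 42.3%), from 30 UMIs of the 2 genes. Cluster 21 stood apart from cluster 25 within the arachnoid class in sham, at 85.7% (73.8% to 93.6%). A UMI is counted once per captured transcript whatever its length, but capture can differ between genes, so the shares compare cell groups and are not absolute proportions.

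Cells with both angiopoietins were counted in the 2 main clusters. In cluster 25 Angpt2 was detected in 12.4% of the 105 sham cells with Angpt1 and in 22.95% of those without, although the cells with Angpt1 were deeper (median 12223 against 10276 UMIs). In JVL-14 the shares were 17.1% and 34.5%, at medians of 9438 and 9163. In cluster 0 they were 31.4% and 32.3% in sham and 31.9% and 35.7% in JVL-14. Cells of 1 library are not replicates, so these shares are a description.

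**Figure D1:**
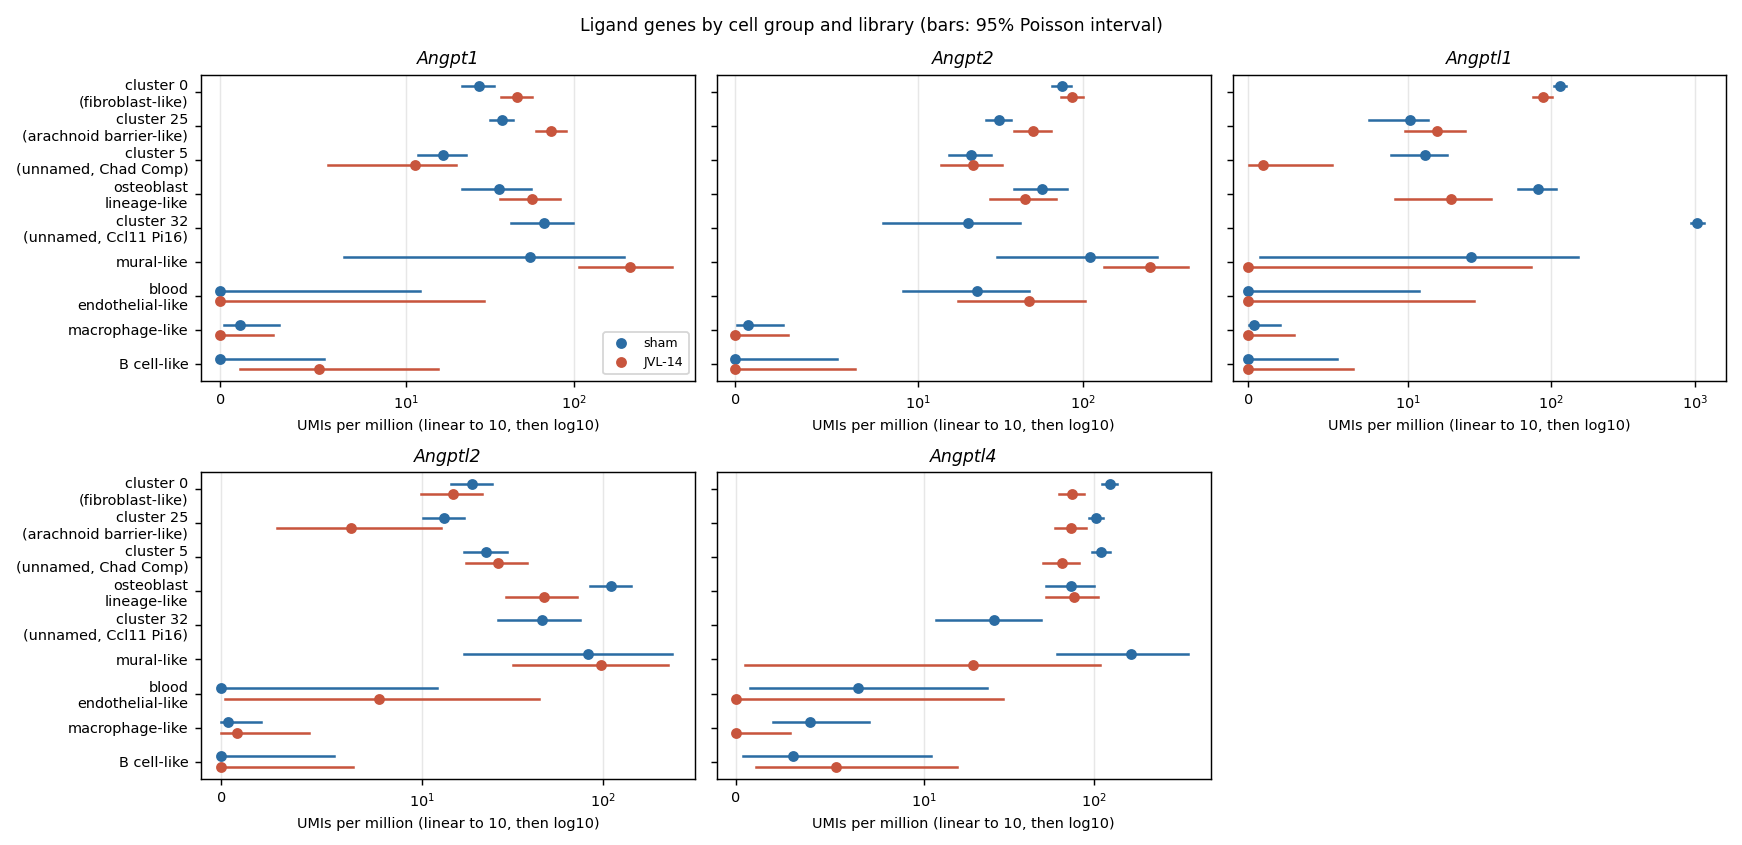
Level of the 5 ligand genes (UMIs per 1000000, linear to 10 and then log10) in 9 cell groups, with sham in blue and JVL-14 in red; points are levels and bars 95% Poisson intervals, and groups under 15 cells in a library are not drawn. Angpt1 lies mostly in stromal and mural cells, and Angpt2 in these and in blood endothelial cells (22.8 in sham and 47.2 in JVL-14). Angptl1 peaks at 1044 in cluster 32, and Angptl4 is lower in JVL-14 in clusters 0, 25 and 5.

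Angptl1, a secreted protein described as an inhibitor of vessel growth, was concentrated in a small stromal cluster. Cluster 32, led by Ccl11, Clec3b, Tnxb and Pi16, held 364 UMIs in 52 of its 58 sham cells, a level of 1044 (939 to 1157). Fibroblasts were next among the named classes, at 110 (385 UMIs, 99.4 to 122), with no overlap. The cluster stayed unnamed, as its 10 leading genes held a marker of another class, though it scored best for fibroblasts: Dcn was in 100% and Pdgfra in 91.4% of its sham cells. JVL-14 had only 2 cells in it, with 4 Angptl1 UMIs.

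Over all retained cells Angptl1 was at 32.0 in sham and 14.4 in JVL-14, which gives 0.449 (0.385 to 0.520). Without cluster 32 and an endothelial cluster that was also nearly confined to sham (cluster 24, 72 and 3 cells), the ratio was 0.726 (0.617 to 0.852). Within fibroblasts it went from 110 to 84.4, a ratio of 0.766 (0.637 to 0.918). That ratio was 0.385 with cells thinned to 1000 UMIs and 0.860 with clusters weighted equally, so whether it passes 1.5-fold rests on the processing. In osteoblast lineage cells it was 80.7 and 20.1 (ratio 0.249, 0.107 to 0.517), but 1 sham cell held 32 of the 43 UMIs and the other 85 sham cells were at 21.1. In cluster 5, 31 UMIs in 14 of 323 sham cells stood against 1 UMI in 142 JVL-14 cells, a ratio of 0.0711 (0.00175 to 0.427). Of those 31 UMIs 67.7% were in 5 cells, and with cells of at least 500 genes the ratio was 0.663. Arachnoid cells had 10.6 and 14.9 (ratio 1.4, 0.844 to 2.26).

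Angptl2, a secreted protein linked to tissue inflammation and matrix remodelling, was highest in sham in osteoblast lineage cells. The level there was 111 in sham (59 UMIs in 24 of 86 cells, 84.3 to 143) and 46.8 in JVL-14 (21 UMIs in 15 of 60 cells, 29.0 to 71.6). These intervals do not overlap, and the ratio was 0.423 (0.244 to 0.706). The 5 cells with most Angptl2 held 55.9% and 52.4% of those UMIs. Mural cells had 82.2 and 97.5, from 3 and 5 UMIs. Cluster 5 was at 22.6 and 26.3 (ratio 1.17, 0.710 to 1.88). Fibroblasts were at 18.3 and 14.4 (0.786, 0.492 to 1.23) and arachnoid cells at 11.7 and 6.55 (0.562, 0.268 to 1.07). Choroid plexus-like cells, seen in sham only, had 15 UMIs in 12 of 80 cells (27.7).

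Angptl4, the lipase inhibitor, was the most abundant ligand gene by UMIs and was lower in JVL-14 in the large stromal groups. In fibroblasts it was at 119 in sham (416 UMIs, 108 to 131) and 70.5 in JVL-14 (147 UMIs, 59.5 to 82.8). The ratio was 0.592 (0.487 to 0.717). In cluster 5 it was at 110 (258 UMIs, 96.9 to 124) and 64.8 (69 UMIs, 50.4 to 82.0), a ratio of 0.590 (0.445 to 0.772). In arachnoid cells it was at 92.0 (545 UMIs, 84.5 to 100.1) and 64.9 (109 UMIs, 53.3 to 78.3), a ratio of 0.705 (0.569 to 0.868). The intervals of the libraries do not overlap in any of these 3 groups. With cells thinned to 1000 UMIs the ratio was 0.455 in fibroblasts but 0.918 in cluster 5 and 1.29 in arachnoid cells. After thinning, only 16, 10 and 15 JVL-14 cells of these groups held an Angptl4 UMI. With so few cells this step cannot decide which of the 3 differences holds at equal depth per cell.

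Osteoblast lineage cells kept a level of 73.2 and 75.8 (ratio 1.04, 0.634 to 1.68). Schwann or glial-like cells were at 67.0 and 63.5 (0.948, 0.437 to 2.05), but their clusters 26 and 27 went opposite ways on few UMIs. Cluster 26 had 75.8 and 28.7 (14 and 5 UMIs), and cluster 27 had 36.9 and 161 (2 and 10 UMIs). Whether the ratio differs between the groups was not tested. As shares of thinned cells, 11.5% of sham and 5.93% of JVL-14 fibroblasts had a UMI (37.6% and 31.9% unthinned, 12 and 6 shallower cells left out). In cluster 25 the thinned shares were 8.35% and 8.8%, beside levels of 103 and 73.3 and median depths of 10931 and 9179 UMIs. Over the whole arachnoid class the median depths were 7719.5 and 5693.5 UMIs.

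Counts of members past 1.5-fold were set beside those of all measured genes. In fibroblasts 6 members reached 20 UMIs: Angpt1 and Ptprb were at least 1.5-fold higher in JVL-14, Angptl4 was lower, and 3 were within. Ptprb reached 20 UMIs only through 1 JVL-14 cell, described below. Among all 11127 measured fibroblast genes 15.4% passed that fold, 6.82% higher and 8.62% lower. In arachnoid cells 1 of 5 was higher (Angpt1) and 1 lower (Angptl2), where 17.8% of genes passed, 8.63% higher and 9.15% lower. In osteoblast lineage cells 1 of 5 was higher (Angpt1) and 2 lower (Angptl1, Angptl2), where 24.5% passed, 11.6% higher and 12.9% lower. The Angptl1 call there rests on 1 sham cell, which held 32 of the 43 sham UMIs. The other 85 sham cells were at 21.1, against 20.1 in JVL-14. In cluster 5, 0 of 5 were higher and 2 lower (Angptl1, Angptl4), where 17.5% passed, 8.66% higher and 8.89% lower. In blood endothelial cells 0 of 3 passed (Tek, Tie1 and Ptprb), where 31.1% of genes did, 16.7% higher and 14.3% lower. Over all retained cells 0 of 8 were higher and 5 lower (Angptl1, Angptl2, Angptl4, Tek, Tie1), where 24.7% passed, 12.9% higher and 11.8% lower. The shares of members past the fold lay above the background in the 4 stromal groups, but each rests on 5 or 6 genes. The median log2 ratio of the members was -0.05 in fibroblasts, 0.50 in arachnoid cells, -0.33 in osteoblast lineage cells and -0.52 in cluster 5, against 0.02, 0.05, 0.00 and 0.04 over all genes. The fibroblast share and median include Ptprb. In cluster 0, which lacks that 1 cell, 5 members were measured, with 1 higher, 1 lower and a median log2 ratio of -0.34.

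The Ptprb value in fibroblasts came from 1 cell. The class held 6 Ptprb UMIs in sham and 16 in JVL-14 (ratio 4.47, 1.66 to 13.9), and 14 of the 16 were in a single cell of cluster 23. That cell also held 4 Tek, 2 Tie1, 6 Cdh5 and 19 Egfl7 UMIs beside 523 of Dcn, so markers of endothelial cells and of fibroblasts met in 1 barcode of 11367 UMIs. Without it, 8 Ptprb and 0 Tie1 UMIs were left in the fibroblasts of both libraries.

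**Figure D2:**
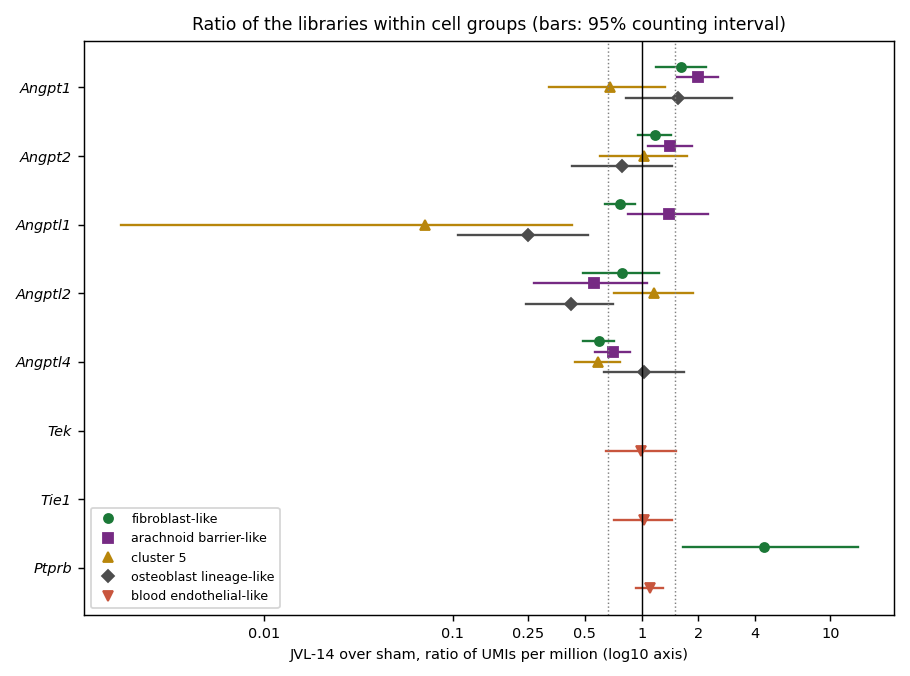
Ratio of levels, JVL-14 over sham (log10 axis), for each member with at least 20 UMIs in a cell group; bars are 95% counting intervals, the solid line marks 1 and the dotted lines 1.5-fold either way. Angpt1 lies above 1 in fibroblasts (1.62) and arachnoid cells (1.98) and below 1 in cluster 5 (0.679). Angptl4 lies below 1 in 3 of 4 stromal groups, and the endothelial points for Tek, Tie1 and Ptprb lie between 0.998 and 1.10. The fibroblast point for Ptprb rests on 1 cell.

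In blood endothelial cells the ratios of Tek, Tie1 and Ptprb were near 1, with intervals that hold 1. This class is a single cluster (cluster 13, led by Plvap, Igfbp3 and Flt1) of 96 sham and 43 JVL-14 cells. Tek was at 260 in both (80 UMIs, 206 to 324, and 33 UMIs, 179 to 365), a ratio of 0.998 (0.644 to 1.51). Tie1 was at 361 (111 UMIs, 297 to 435) and 370 (47 UMIs, 272 to 492), a ratio of 1.02 (0.712 to 1.45). Ptprb was the highest, at 1565 (481 UMIs, 1428 to 1711) and 1724 (219 UMIs, 1503 to 1968), a ratio of 1.10 (0.935 to 1.3). Tek and Tie1 rest on few UMIs: thinned to 1000 UMIs per cell their ratios were 0.492 and 0.677, and without the 5 deepest cells of each library Tek was at 0.641. At a median of 2545.5 and 2529 UMIs per cell, 42.7% and 37.2% of the cells had a Tek UMI, 58.3% and 58.1% a Tie1 UMI and 83.3% and 90.7% a Ptprb UMI. Thinned to 1000 UMIs, with 18 and 7 shallower cells left out, the shares were 21.8% and 11.1% for Tek, 34.6% and 25.0% for Tie1 and 75.6% and 83.3% for Ptprb.

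Cluster 24 shared the endothelial genes but with other proportions. Its leading genes include Fabp4, Ly6c1, Gpihbp1 and Car4, which are known from capillaries. Gpihbp1 was in 87.5% of its 72 sham cells and Plvap, a gene of fenestrated and venous endothelium, in 1.39%. In sham cells of the blood endothelial class Gpihbp1 was in 55.2% and Plvap in 85.4%, so Gpihbp1 was common to both clusters. In sham Tie1 was higher in cluster 24 than in cluster 13 (579, 447 to 738) and Ptprb lower (1123, 935 to 1337), both with no overlap of intervals. Tek was at 392 (285 to 526), which overlaps with cluster 13. Only 3 JVL-14 cells fell into cluster 24, so no ratio is given, and with 1 library each the condition and the library cannot be told apart. Skeletal muscle-like, choroid plexus-like and pinealocyte-like clusters were also nearly confined to sham (80 choroid plexus cells against 0).

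Tek, but not its partners, was present in cluster 32. There 26 of 58 sham cells held 46 Tek UMIs, a level of 132 (96.6 to 176). Tie1 and Ptprb were at 0, which allows up to 8.60 each. Of 8 blood endothelial markers 6 were at 0 (Cdh5, Egfl7, Flt1, Cldn5, Emcn, Esam), Pecam1 was in 1 cell, and Plvap had 8 UMIs in 5 cells, for a summed level of 25.8. Kdr was in 1 cell. Of the 26 cells with Tek, 25 also held Pdgfra, 26 held Pi16 and 25 held Angptl1, so the Tek transcripts lay in cells with fibroblast genes. By contrast 34 of 41 Tek-positive sham cells of the blood endothelial class held Tie1 and 39 held Ptprb. In the main fibroblast cluster, cluster 0, Tek was in 2 of 419 sham cells and 3 of 232 JVL-14 cells. The same 58 cells had Angpt1 at 65.9 (23 UMIs, 11 of them in 1 cell).

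The lower Tek, Tie1 and Ptprb levels over all cells moved when clusters 24 and 32 were left out. Cluster 32 held no Tie1 or Ptprb UMI. For these 2 genes the UMIs left out were thus those of cluster 24 (65 and 126 in sham). For Tek both clusters counted, with 44 sham UMIs in cluster 24 and 46 in cluster 32. Over all retained cells the ratio was 0.460 for Tek, 0.534 for Tie1 and 0.731 for Ptprb. Without clusters 24 and 32 it was 0.900 (0.610 to 1.31), 0.792 (0.557 to 1.11) and 0.863 (0.737 to 1.01). Angptl4 was not moved by the same step (0.542 with them and 0.538 without), nor was Angpt1 by much (1.24 and 1.3).

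**Figure D3:**
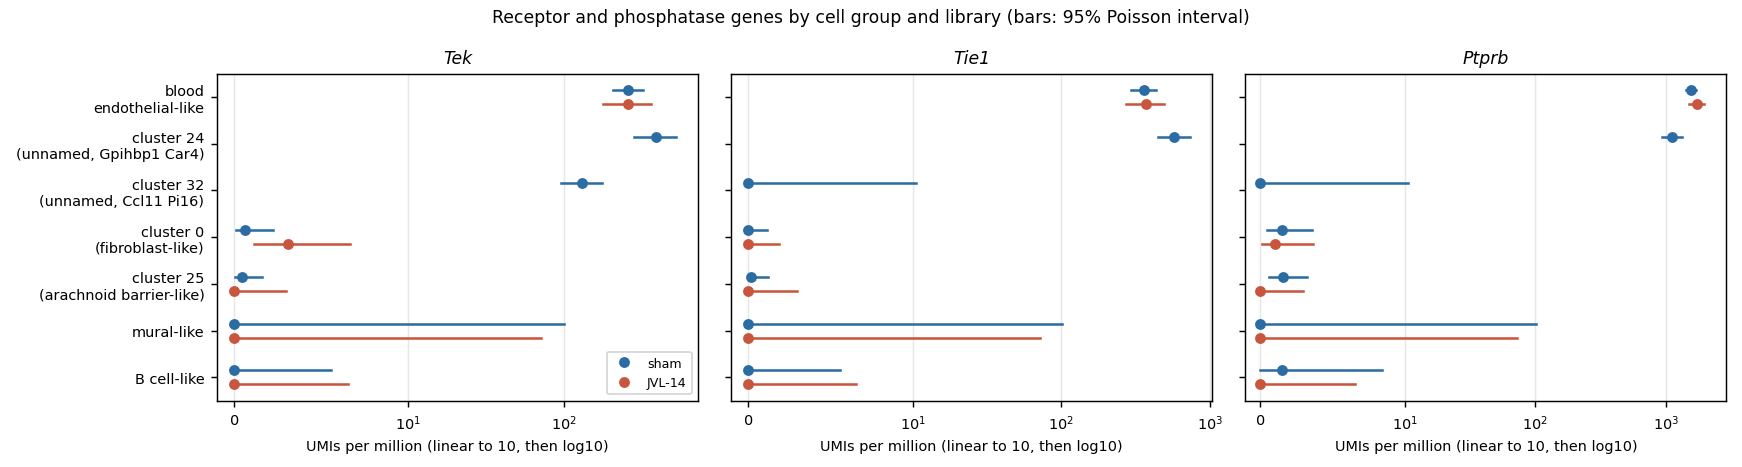
Level of Tek, Tie1 and Ptprb (UMIs per 1000000, linear to 10 and then log10) in 7 cell groups, sham in blue and JVL-14 in red, with 95% Poisson intervals; groups under 15 cells in a library are not drawn. The 3 genes are high in the blood endothelial class and cluster 24, and cluster 32 shows Tek at 132 with Tie1 and Ptprb at 0.

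The wider pathway was read in blood endothelial cells, where Tek, Tie1 and Ptprb act. Of 16 genes listed as effectors and partners of Tie signalling 7 were measured: Pik3r1, a regulatory subunit of PI3 kinase, was higher (2.64, 1.07 to 6.60, from 11 and 12 UMIs) and none was lower. Ptk2, focal adhesion kinase, came next at 1.48, and Nos3 (0.717) and Foxo1 (0.744) were lowest. Of 15 pan-endothelial genes all were measured: Cldn5, the tight junction protein, at 3.04 (2.32 to 3.99) and Sox18 at 1.58 were higher, none was lower, and Sox17 (0.796) and Flt1 (0.848) were lowest. Their median log2 ratio was 0.20, against 0.08 over all 3613 measured genes. The Cldn5 UMIs lay in a minority of cells: 101 in 17 of 96 sham cells and 127 in 14 of 43 JVL-14 cells. With 16.7% of all genes in this class higher and 14.3% lower, neither list had more genes past the fold than the background. Of 8 tip cell and FOXO1 target genes 4 were measured, with Aplnr higher (1.56) and Cited2 (0.230) and Esm1 (0.571) lower. Pdgfb stood at 1.02.

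Angpt4, a further Tie2 ligand, had 0 UMIs in blood endothelial and mural cells of both libraries. It stood highest in cluster 5 among the stromal groups described here (86.9 in sham, 93.9 in JVL-14, ratio 1.08) and was higher in JVL-14 in fibroblasts (22.9 and 40.3, ratio 1.76, 1.28 to 2.42) and osteoblast lineage cells (31.9 and 64.7, ratio 2.03, 1.08 to 3.93). In fibroblasts 3 of the 5 other family members were measured: Angpt4 was higher, and Angptl7 (0.985) and Angptl6 (0.754) were within 1.5-fold. The lipase axis that Angptl4 acts on stayed within 1.5-fold in fibroblasts: 4 of 8 genes were measured and none passed, from Vldlr at 1.22 and Sel1l at 0.992 to Lmf1 at 0.961 and Lpl at 0.902. Of 7 proposed receptor genes for angiopoietin-like proteins 3 were measured and none passed, with Itga5 at 1.20, Itgb1 at 1.19 and Itgav at 1.06.

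Angptl4 is a known target of the glucocorticoid receptor, of PPARs and of hypoxia, and lists of such targets were read in fibroblasts. Of 8 glucocorticoid targets 5 were lower and none higher, with a median log2 ratio of -0.68 against 0.02 over all genes, of which 8.62% were lower. The lowest were Zbtb16 at 0.261 and Fkbp5 at 0.307, and Per1 (0.913) and Tsc22d3 (0.902) were nearest to 1. Among the PPAR targets, Fabp4 was higher (2.21), Acadvl was at 1.07 and Cpt1a at 0.671. Of 11 hypoxia targets 10 were measured, with Hilpda higher (1.51), Pgk1 at 1.19, Pfkfb3 (0.474) and Egln3 (0.636) lower, and a median of -0.06.

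In the other stromal groups the number of glucocorticoid targets lower by 1.5-fold varied. In cluster 5 it was 5 of 8 (median log2 -1.10, against 0.04 over all genes, of which 8.89% were lower). In arachnoid cells it was 3 of 8 (median -0.31, against 0.05 and 9.15%), so most of the list did not pass there. In osteoblast lineage cells it was 6 of 7 (median -1.04, against 0.00 and 12.9%), the group in which Angptl4 itself stayed at a ratio of 1.04. No gene of the list was higher by 1.5-fold in any of these 4 groups. The part of this list in the Angptl4 result was not tested.

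**Figure D4:**
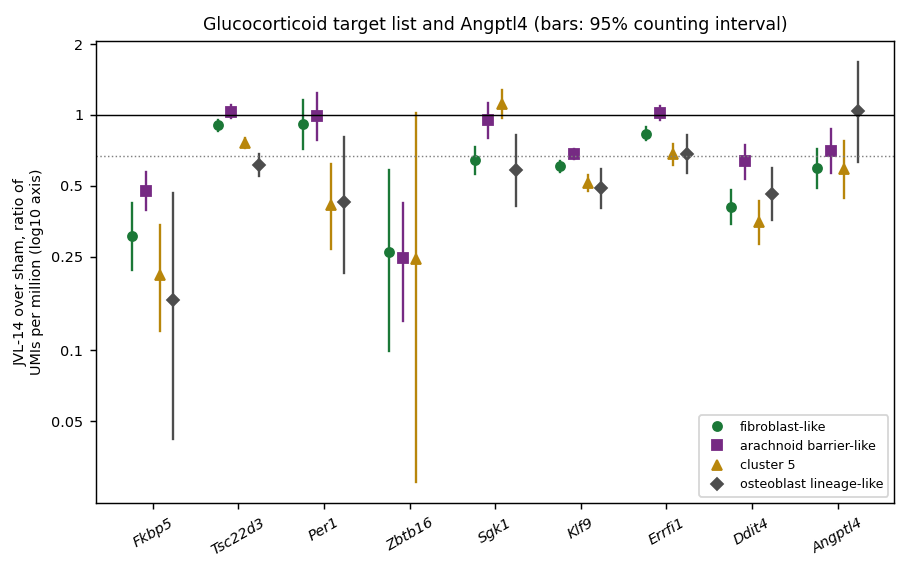
Ratio of levels, JVL-14 over sham (log10 axis), of 8 glucocorticoid target genes and Angptl4 in 4 stromal groups, for genes with at least 20 UMIs; bars are 95% counting intervals, the solid line marks 1 and the dotted line a 1.5-fold fall. Fkbp5 and Ddit4 lie below the dotted line in all 4 groups, whereas Angptl4 lies below it in fibroblasts and cluster 5 only.

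Likeness of pattern was described by the Pearson correlation of log2 levels (10 added) over 48 pairs of class and library, among 12691 genes. The points share 2 libraries and their depths, so no p is given. Tie1 was most like Sox17 and Robo4 (r = 0.998 each), followed by Ushbp1, Rbp7 and Gpihbp1, and Ptprb was most like Robo4 (r = 0.988), Tie1, Cyyr1, Mmrn2 and Sox17. Tek came closest to Ly6c1 (r = 0.970), Tcf15, Clec1a, Fgd5 and Rbp7, with Tie1 at 0.906. The ligands had looser neighbours: Bmp5 (r = 0.864), Aoc3, Gpc6, C1qtnf6 and Col6a2 for Angpt1, and Phldb2 (r = 0.943), Tgfb1i1, Lamb2, Ccn1 and Igfbp7 for Angpt2. Angptl1 was most like Ssc5d (r = 0.924), Epyc, Nox4, Gfpt2 and Dpt, Angptl2 like Antxr1 (r = 0.909), Fads3, Postn, Larp6 and Rbms3, and Angptl4 like Dact3 (r = 0.923), Ogn, Calhm5, Sspn and Mrc2. Among the members, Angpt1 and Angpt2 reached 0.747 with each other, and Angpt1 and Tek -0.03.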

How the data were processed

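Droplet single-cell RNA sequencing measured transcripts in dura of sham and JVL-14 mice, 1 library each. The deposited values are raw UMI counts per gene and barcode, written by Cell Ranger 8.0.0 per the file headers; the submitters' processing notes name mm39. Sham had 5495 barcodes and 33996641 UMIs, and JVL-14 had 3004 and 18796260. The libraries shared 2 barcodes.

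Cells were kept from 200 detected genes (266 and 244 barcodes fell short) and up to 10% mitochondrial UMIs. The automatic Scrublet threshold marked 0.121% and 0.230%, so the top 5% of scores (281 and 135) were removed. Using scanpy 1.11.5, 2000 variable genes (the 8 members barred), 30 components and 15 neighbours gave 36 Leiden clusters at resolution 1. Of these, 30 were named as 21 classes and 6 stayed unnamed. A name needed at least 3 markers raised 1.5-fold, a score of at least 0.5 that led the second class by a set margin, and no excess of another class's markers among the 10 leading genes. These naming limits were set after the data were seen.

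UMIs were summed per class and library. Levels carry exact Poisson intervals, ratios exact conditional binomial ones and shares exact Clopper-Pearson ones. A call is a ratio of at least 1.5-fold in a gene with at least 20 UMIs, and a count of 0 allows 3. The ratio step was tested on simulated data. The rule for named genes took all 8 members, from each list the 2 highest and 2 lowest ratios in the class where the related member was highest, and the 5 genes most like each member. Members and lists were chosen with earlier results of these data known. Mean, thinned, leave-out and other settings were tried as alternatives. The result of 1 gene of the PPAR target list, and the counts of that list, are not reported here.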

Additional observations from a re-analysis of the deposited data

How the results depend on the processing

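For 24 ratios of single members in 5 cell groups, 14 planned settings gave 283 values: 257 stayed within the counting interval of the reported ratio, 24 left it, and 2 that had been past 1.5-fold turned direction. In all, 28 values, these 2 included, lay on the other side of 1 from the reported ratio. Angpt1 in fibroblasts was 0.559 when clusters 0 and 23 were weighted equally, since cluster 23 holds few Angpt1 UMIs, and Angptl2 in arachnoid cells was 1.07 as a mean over cells. The count of members past 1.5-fold (3 in fibroblasts, Ptprb included) was 6 of 7 with at most 5% mitochondrial UMIs and 5 of 7 at Leiden resolution 0.5. In arachnoid cells (2) it was 1 without doublet removal, with at most 5% mitochondrial UMIs and when averaged within clusters. In blood endothelial cells (0) it was 1 without doublet removal and without a filter on low counts (Angpt2 in both), and 1 when thinned to 1000 UMIs and without the 5 cells with most UMIs (Tek in both, ratios of 0.492 and 0.641). Thinned, it was 0 in cluster 5 and 0 in osteoblast lineage cells, where fewer members reached 20 UMIs. The cause of the other shifts was not tested. The share of all genes past 1.5-fold under each altered setting is not given here. These counts of members therefore cannot be read as above or below a background. Angptl1 in fibroblasts was lower still under settings that redraw the clusters, to 0.425 with members allowed among the variable genes and 0.460 at resolution 0.5. Angpt1 in arachnoid cells ranged from 1.74 to 3.25 over the 14 settings. Angptl4 in arachnoid cells was 1.29 when thinned to 1000 UMIs, against 0.705. Leaving out clusters 24 and 32, a choice made after seeing the data, is given with the results. Without the 1 cell of cluster 23, Ptprb in fibroblasts fell under 20 UMIs and has no ratio. No paired analysis was possible because each group has 1 library and the labels carry no replicate numbers. Depth limits mural values, which rest on at most 13 UMIs per gene and library.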
